A study of Mus musculus with 18 samples.

Results

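The transcripts described are those of the FGF receptors and of a group of their ligands: FGFR1, FGFR2, FGFR3 and FGFR4, and FGF2, FGF4, FGF7 and FGF10. They were chosen by name, as every probe that the array table gives to these genes. The 8 genes had 15 of the 45281 probes. Probes were kept where 3 or more of the 18 arrays detected them (a detection p below 0.05). By this filter 10 of the 15 probes and 6 of the 8 genes were tested, among 16446 genes in all. The arrays hold cultures collected on day 3 in 6 groups of 3 biological replicates. Murine embryonic stem (ES) cells, in the study's methods a line with EGFP knocked in at the tau gene, were grown on the murine stromal line PA6, which gave the ES/PA6 co-cultures, and PA6 cells were also grown alone as mono-cultures. Both kinds of culture were kept in serum-free medium without growth factors (-GFs), with recombinant FGF2 at 20 ng/ml or with recombinant BMP4, at 10 ng/ml in the labels and at a lower dose in the methods' account of cultures on slides. RNA of a co-culture is a mixture of ES-derived and PA6 RNA, so its values do not belong to a single cell type.

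Most FGFs are secreted proteins that bind receptor tyrosine kinases together with heparan sulfate, and the receptors signal through the RAS and ERK cascade. Alternative splicing gives FGFR1, FGFR2 and FGFR3 either an epithelial or a mesenchymal ligand-binding form. FGF7 and FGF10 are made by mesenchymal cells and bind the epithelial form of FGFR2, while FGF4 is a ligand that ES cells produce and that moves them out of the naive state. FGF2 binds most of the receptors, and here it is both a growth factor added to the medium and 1 of the genes measured. The array table does not say which transcript form a probe reads, so the splice forms are not told apart.

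Between 17125 and 20412 probes per array were detected, no pair of arrays was identical, and normalized arrays of 1 group correlated across genes at 0.981 to 0.992. Levels are normalized log2 intensities, which can be compared between groups for a probe but not between probes. Marker lists matched the labels. The summed level of 7 tested pluripotency markers was 23364 to 43323 on the linear scale where ES cells were present and 333 to 444 in PA6 cells alone, where 1 of the 7 was detected on every array of a group. The 10 stroma markers were all tested, with sums from 53988 to 95349 in ES/PA6 arrays and from 137932 to 180217 in PA6 arrays. The neural (3 tested), endothelial (5) and epithelial (3) markers summed to at most 135, 541 and 241 in the mono-cultures, against 183 to 2411, 789 to 2416 and 2597 to 7098 in the co-cultures. With BMP4 the neural sum in the co-cultures was 183 to 344, against 320 to 2411 in -GFs, and the epithelial sum 5192 to 7098, against 3662 to 4208. The 6 adipocyte markers differed between treatments in both culture types. In the mono-cultures they summed to 10300 to 13373 in -GFs, 1551 to 1831 with FGF2 and 26674 to 59103 with BMP4. In the co-cultures the ranges were 2368 to 4705, 1709 to 1973 and 6417 to 28508.

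The first question was which of the genes are measured at all, and in which culture. The FGF2 transcript and FGFR4, a receptor known from liver and muscle, were detected on 0 of 18 arrays at their only probes. Their levels lay between 4.83 and 5.72 and between 4.86 and 5.77, so neither can be compared. FGF4 was detected on all 9 co-culture arrays and on none of the mono-culture arrays. FGFR1, FGFR2, FGF7 and FGF10 were detected on all 18 arrays at the probe of largest mean, which stands for the gene. FGFR3 was detected on the 3 PA6 BMP4 arrays and on 1 PA6 -GFs array, and on no co-culture array. FGFR3 thus passed the filter only through PA6 BMP4, and FGF4 only through the co-cultures. Calls that place them higher in these groups are not free of the filter. Of the other probes, FGFR2 ILMN_1229167 and ILMN_2646078 and FGFR3 ILMN_2590766 were detected on 0 arrays.

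**Figure D1:**
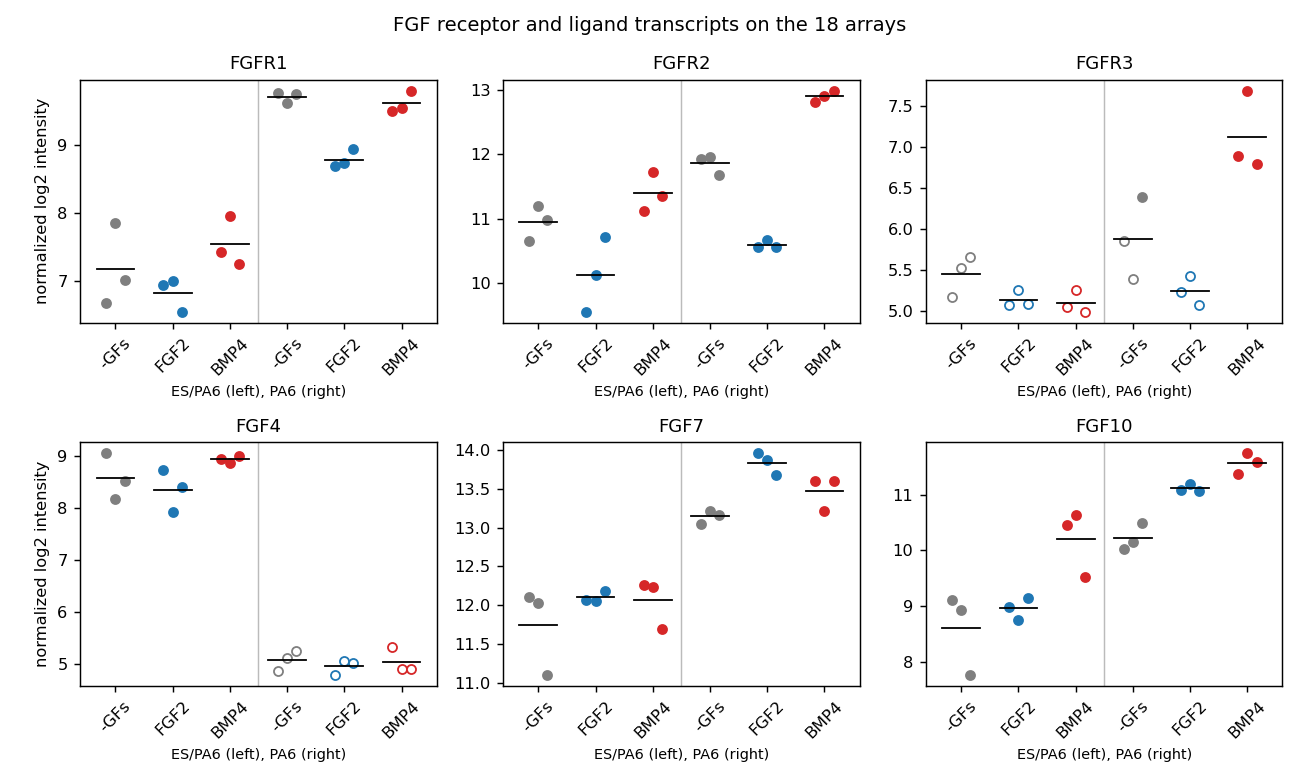
Normalized log2 intensity (vertical axis) of the 6 tested genes on each of the 18 arrays, in ES/PA6 co-cultures (left of the grey line) and PA6 mono-cultures (right) without growth factors (-GFs), with FGF2 or with BMP4. Points are arrays, open where the probe was not detected, and lines are means of 3; each panel has its own scale. FGF4 separates the culture types, and FGFR2 in the mono-cultures is lowest with FGF2 and highest with BMP4.

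FGF2 vs -GFs in the PA6 mono-cultures asked how the stroma answers by itself to the ligand. FGFR2 was the 1 called gene of the 6, being lower, where 5.27% of all genes were called and 2.56% were called lower. A call needs an adjusted p below 0.1 and a log2 change larger than 1 in size. An adjusted p below 0.1 at any fold was reached by 4 of the 6, against 18.7% of all genes. At probe ILMN_1225071, FGFR2 stood at 11.93, 11.96 and 11.69 in -GFs and at 10.56, 10.67 and 10.56 with FGF2. The groups did not overlap. FGFR2 fell from 11.86 ± 0.15 to 10.60 ± 0.067 (SD, n = 3), a log2 change of -1.26 ± 0.229 (SE) or 2.40-fold (adjusted p 0.00121). The second detected probe, ILMN_2609887, stood at 8.03, 7.94 and 7.36 in -GFs and at 5.86, 6.50 and 6.43 with FGF2, where it was detected on 2 of 3 arrays. Its change was -1.51 ± 0.302 (SE, adjusted p 0.00257).

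FGFR1, the receptor most used by mesenchymal cells, stood at 9.76, 9.61 and 9.74 in -GFs and at 8.69, 8.72 and 8.93 with FGF2 (ILMN_2727068). The groups did not overlap, as in 33.8% of all genes. Its log2 change of -0.92 ± 0.244 (SE, adjusted p 0.017) was too small for a call. The dimmer probe ILMN_2675581 stood at 7.69, 7.08 and 7.60 in -GFs and at 6.37, 5.62 and 5.99 with FGF2, where it was detected on 1 of 3 arrays, and it was called at -1.46 ± 0.255 (SE, adjusted p 0.000832). FGFR3 was at 5.86, 5.39 and 6.39 in -GFs and 5.24, 5.42 and 5.08 with FGF2, near the detection limit (log2 change -0.63, adjusted p 0.102).

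The member ligands detected here, FGF7 and FGF10, went the other way, but neither was called. Of 8 other FGF genes tested 1 was called in this comparison, FGF18, and it was lower. FGF7, also called keratinocyte growth factor, stood at 13.05, 13.22 and 13.17 in PA6 -GFs and at 13.96, 13.87 and 13.68 with FGF2. All FGF2 arrays lay above all -GFs arrays, with a log2 change of 0.69 ± 0.221 (SE) that was also too small for a call (adjusted p 0.0461). FGF10 stood at 10.02, 10.16 and 10.49 in -GFs and at 11.09, 11.19 and 11.07 with FGF2 (ILMN_2982771), again without overlap. Its log2 change was 0.89 ± 0.305 (SE, adjusted p 0.0627), and at the other probes 0.80 (ILMN_2736497, adjusted p 0.0877) and 0.61 (ILMN_1213777, adjusted p 0.0473), none of them called. Without PA6 -GFs replicate 3 the FGF10 change was 1.03 and passed both thresholds.

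The stroma and adipocyte lists moved in the same comparison, by -0.41 and -2.93 in mean log2. With the mean of the 10 stroma markers subtracted from every array, the change of every gene moves up by the markers' own fall. The FGFR2 change was then -0.85, under the fold threshold, and FGF7 (1.11) and FGF10 (1.31) passed both thresholds. Of 16446 genes 1369 were called after this step, against 867 before it. Mono-cultures hold no ES cells, so these passes follow from the shift and are not a separate result. The part of the adipocyte markers in these changes was not tested.

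In the ES/PA6 co-cultures none of the 6 genes was called for FGF2 vs -GFs, where 3.34% of all genes were called. FGFR2 stood at 10.65, 11.20 and 10.98 in -GFs and at 9.55, 10.13 and 10.71 with FGF2, so that FGF2 replicate 3 lay inside the -GFs range. Its log2 change was -0.81 ± 0.229 (SE, adjusted p 0.0447 in limma). The second probe was detected on all 3 -GFs arrays, at 6.55, 6.47 and 5.96, and on none of the FGF2 arrays, at 5.68, 5.62 and 5.64 (adjusted p 0.257). Without FGF2 replicate 3, FGFR2 was called at -1.10 (adjusted p 0.00334), and relative to the stroma markers the change was -0.29. The stroma markers fell by 0.52 and the adipocyte markers by 1.01 in mean log2 here, and the part of the adipocyte markers was not tested. FGFR1, FGF4, FGF7 and FGF10 changed by -0.35, -0.22, 0.36 and 0.36, none below an adjusted p of 0.461, and 1 of the 6 genes had an unadjusted p under 0.05, against 17.8% of all genes. FGFR3 was not detected in either group. Of the 6 interaction contrasts, which test the FGF2 change in the co-cultures against that in the mono-cultures, 0 were called, and 7.39% of all genes were. The interaction of FGFR2 was 0.45 ± 0.324 (SE, adjusted p 0.444), and 0 of the 6 had an unadjusted p under 0.05 in limma, against 23.8% of all genes, so that no difference between the culture types was shown. The dimmer FGFR1 probe had an interaction of 1.34 ± 0.36 (SE, adjusted p 0.0274), but it was not detected on any co-culture array of either group.

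**Figure D2:**
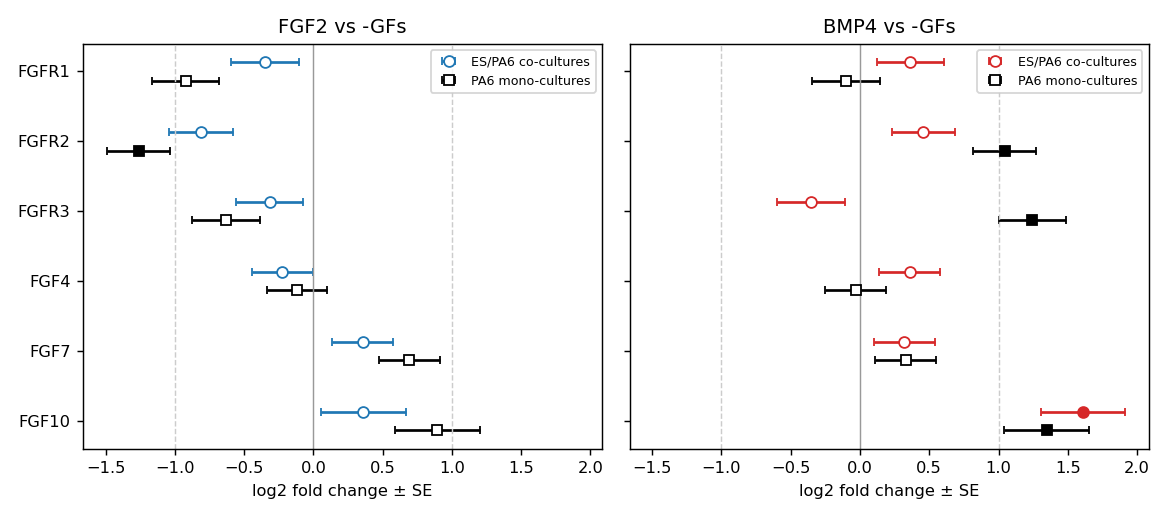
Log2 fold change (horizontal axis) with its standard error for the 6 tested genes, FGF2 vs -GFs (left) and BMP4 vs -GFs (right), in ES/PA6 co-cultures (circles) and PA6 mono-cultures (squares). Filled symbols were called and dashed lines mark the fold threshold. FGFR2 in the mono-cultures lies at -1.26 with FGF2 and 1.04 with BMP4.

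BMP4 vs -GFs asked the same of the second growth factor. In the PA6 mono-cultures 3 of the 6 genes, FGFR2, FGFR3 and FGF10, were called, all 3 higher. Of all genes 1.41% were called and 0.839% were called higher. FGFR3 passed the detection filter only through these BMP4 arrays, so its place in this count is partly set by the filter. FGFR2 stood at 12.81, 12.91 and 12.99 with BMP4, above every -GFs array, a log2 change of 1.04 ± 0.229 (SE, 2.06-fold, adjusted p 0.0227), with 1.10 at its second probe (adjusted p 0.0765). Without PA6 -GFs replicate 3 the change was 0.96, under the fold threshold. FGFR3, a receptor best known as a brake on growth of cartilage, stood at 6.89, 7.68 and 6.79 with BMP4, where it was detected on all 3 arrays, against 1 of 3 in -GFs. No -GFs array reached these values, as in 21.5% of all genes, and the log2 change was 1.24 ± 0.243 (SE, adjusted p 0.0109), measured against a group near the detection limit. It was 0.998 without PA6 -GFs replicate 2 and 0.96 without BMP4 replicate 2, in both cases under the fold threshold, and 0.60 to 0.65 with normalization that leaves the background in.

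FGF10 stood at 11.37, 11.74 and 11.60 with BMP4 in the mono-cultures, above all 3 -GFs arrays. Its log2 change was 1.35 ± 0.305 (SE, 2.54-fold, adjusted p 0.0266). The adjusted p was 0.116 both without PA6 -GFs replicate 1 and without BMP4 replicate 2. The other FGF10 probes changed by 1.499 ± 0.294 (ILMN_2736497, adjusted p 0.0116) and 1.28 ± 0.196 (ILMN_1213777, adjusted p 0.00209). FGFR1 stood at 9.49, 9.54 and 9.79 with BMP4, overlapping the -GFs arrays (log2 change -0.10 ± 0.244 SE), and FGF7 stood at 13.61, 13.22 and 13.60 (0.33 ± 0.221 SE, adjusted p 0.637).

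In the co-cultures FGF10 was the 1 gene of 6 called with BMP4, where 0.76% of all genes were called and 0.31% were called higher. It stood at 9.10, 8.93 and 7.77 in -GFs and at 10.46, 10.64 and 9.53 with BMP4. The groups did not overlap, as in 13% of all genes, although replicate 3 was the lowest array of both. Within the 3 replicates the differences were 1.36, 1.71 and 1.76, and the log2 change was 1.61 ± 0.305 (SE, 3.05-fold, adjusted p 0.0211). The other probes changed by 1.59 ± 0.294 (ILMN_2736497, adjusted p 0.0189) and at ILMN_1213777 by at least 1.31-fold (adjusted p 0.0217). The call was lost in a fit on the 9 co-culture arrays alone (adjusted p 0.244) and kept without any 1 array, at 1.19 to 1.95.

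FGFR2 stood at 11.12, 11.72 and 11.36 with BMP4 in the co-cultures, overlapping the -GFs arrays (log2 change 0.46 ± 0.229 SE, adjusted p 0.505). Within the 3 replicates it was higher by 0.47, 0.52 and 0.38, and with the replicate as a block the adjusted p was 0.191. FGFR1, FGF4 and FGF7 changed by 0.36, 0.36 and 0.32, and none of these passed. FGFR3 was not detected in the co-cultures, with levels of 5.05, 5.26 and 4.99 under BMP4. Its BMP4 interaction was called at -1.60 ± 0.344 (SE, adjusted p 0.0682), 1 of the 6 genes against 0.559% of all genes (0.31% called lower). Since both co-culture groups were undetected, its co-culture side is a difference between background values and the size of the contrast is not a measured one.

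The adipocyte markers rose by a mean log2 of 1.58 in the mono-cultures and 1.92 in the co-cultures with BMP4, with 2 of 6 called higher in each. In the co-cultures the neural markers had a median change of -1.85 (1 of 3 called lower) and the epithelial markers of 1.10 (1 of 3 called higher), and 1 of 5 endothelial markers was called higher. The part of these lists in the BMP4 changes was not tested. The stroma markers fell by 0.41 and 0.43. Relative to them, FGF10 changed by 1.75 and 2.04 and FGFR2 by 1.45 and 0.89 in the mono-cultures and co-cultures. This again shifts every gene by the markers' own fall.

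**Figure D3:**
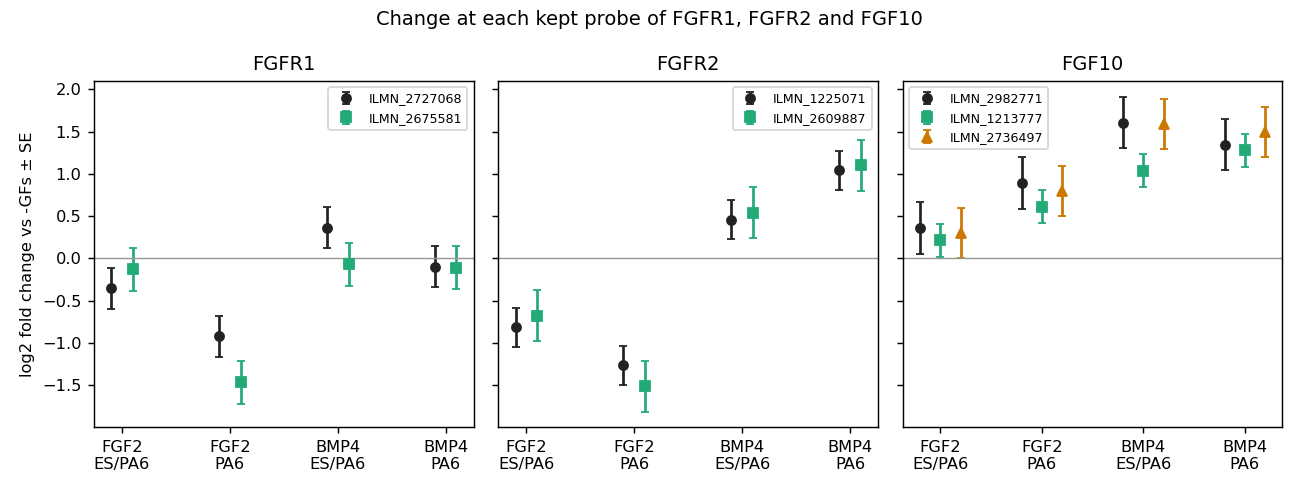
Log2 fold change vs -GFs with its standard error (vertical axis) at each kept probe of FGFR1, FGFR2 and FGF10, for FGF2 and BMP4 in both culture types (horizontal axis). The first probe in each legend stands for the gene. The pair of FGFR2 probes lies at -1.26 and -1.51 with FGF2 in PA6 and at 1.04 and 1.10 with BMP4, and all 3 FGF10 probes lie above 0 with BMP4 in both culture types. ILMN_1213777 was undetected in ES/PA6 -GFs, and ILMN_2675581 in all ES/PA6 groups, so these points are set against background.

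The start regions of the 3 genes called higher in the BMP4-treated mono-cultures follow, so that their sequence can be set side by side. For FGFR3 the limit of the filter given above applies. Each is the 250 bases upstream of a RefSeq transcript start (assembly GRCm38.p6), 5′ to 3′ on the gene's strand. Capitals mark matches, on either strand, to GGCGCC or GTCTAGAC (both bound by SMAD proteins, which carry BMP signals), CCGGAAG (ETS), TGANTCA (AP-1), GGGCGG (GC box) and TATAAA.
Fgfr2, chr7:130266809-130267058, minus strand: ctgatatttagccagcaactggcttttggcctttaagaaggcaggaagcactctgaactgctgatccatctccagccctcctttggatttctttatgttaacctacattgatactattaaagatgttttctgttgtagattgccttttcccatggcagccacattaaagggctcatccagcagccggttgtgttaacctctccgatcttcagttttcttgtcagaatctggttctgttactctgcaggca
Fgfr3, chr5:33721474-33721723, plus strand: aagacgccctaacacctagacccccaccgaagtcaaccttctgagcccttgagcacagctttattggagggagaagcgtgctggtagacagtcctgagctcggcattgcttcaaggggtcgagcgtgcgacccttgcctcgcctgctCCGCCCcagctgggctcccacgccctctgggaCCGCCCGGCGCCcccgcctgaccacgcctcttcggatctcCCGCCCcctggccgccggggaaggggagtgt
Fgf10, chr13:118714449-118714698, plus strand: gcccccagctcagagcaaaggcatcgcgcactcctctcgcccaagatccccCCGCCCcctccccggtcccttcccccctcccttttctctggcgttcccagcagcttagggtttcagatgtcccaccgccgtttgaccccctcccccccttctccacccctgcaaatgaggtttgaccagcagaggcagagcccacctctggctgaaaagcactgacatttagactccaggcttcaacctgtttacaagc
None of the motifs matched in the Fgfr2 window, which held 2 CpG pairs at 44% GC. The Fgfr3 window held 1 GGCGCC and 3 GC boxes, with 19 CpG pairs, and the Fgf10 window 1 GC box and 8 CpG pairs. The GGCGCC of Fgfr3 lies directly beside a GC box without overlapping it. Of 32851 windows of the same length, 9.59% hold GGCGCC, 0.167% GTCTAGAC, 6.91% CCGGAAG, 6.75% TGANTCA, 32.7% GGGCGG and 12.4% TATAAA. The Fgf2 and Fgf4 windows also held 1 GGCGCC each, while the FGF2 transcript was undetected and FGF4 was not called with BMP4. A second Fgfr3 start, chr5:33722056-33722305, also held 1 GGCGCC. A match describes letters only.

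FGF2 and BMP4 were also set against each other, on the same FGF2 and BMP4 arrays as above. In the PA6 mono-cultures FGFR2 and FGFR3 were called, both lower with FGF2 (2 of 6, against 5.82% of all genes called and 2.94% called lower). FGFR2 was 4.95-fold lower with FGF2 than with BMP4 (log2 difference -2.31 ± 0.229 SE, adjusted p 3.97e-06), and every FGF2 array lay below every BMP4 array, as in 33.1% of all genes. FGFR3 was at least 1.82-fold lower with FGF2 (adjusted p 4.72e-05), being detected on 0 of 3 FGF2 arrays. It had passed the detection filter only through the BMP4 arrays. FGFR1 differed by -0.82 (adjusted p 0.0311), under the fold threshold, and by -1.35 at ILMN_2675581, which was called (adjusted p 0.00154) and detected on 1 of 3 FGF2 arrays. All 6 adipocyte markers were called lower in this comparison (median -5.19), and their part was not tested. In the co-cultures FGFR2 (-1.27 ± 0.229 SE, adjusted p 0.00374) and FGF10 (-1.25 ± 0.305 SE, adjusted p 0.0247) were called, both lower with FGF2, 2 of 6 against 2.85% of all genes called and 1.03% called lower. The FGFR2 difference was -0.98 without ES/PA6 FGF2 replicate 1, and FGF10 lost its call without BMP4 replicate 2 (adjusted p 0.123) and in the fit on 9 arrays (0.149). Of the adipocyte markers 4 of 6 were called lower there (median -2.63), as were 2 of 3 epithelial markers, and the part of both lists was not tested.

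The culture types were compared in -GFs medium. No culture held ES cells alone, so a difference does not assign a transcript to a cell type. Of the 6 genes 4 were called, FGF4 higher and FGFR1, FGF7 and FGF10 lower in the co-cultures, where 39% of all genes were called (19.4% higher and 19.5% lower) and the median of all genes was -0.11. FGF4 stood at 9.05, 8.18 and 8.52 in the co-cultures and at 4.86, 5.13 and 5.25, all undetected, in the mono-cultures. It was at least 4.87-fold higher (adjusted p 8.17e-10). FGF4 had passed the detection filter only through the co-culture arrays, so its place in this count is partly set by the filter. FGFR1 stood at 6.67, 7.86 and 7.01 against 9.76, 9.61 and 9.74, a difference of -2.53 ± 0.244 (SE, 5.76-fold, adjusted p 1.45e-07), with no overlap, as in 70.4% of all genes. The second FGFR1 probe was at least 2.98-fold lower.

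FGF7 stood at 12.10, 12.03 and 11.10 in the co-cultures, a difference of -1.40 ± 0.221 (SE, adjusted p 3.13e-05), and FGF10 differed by -1.62 ± 0.305 (SE, adjusted p 0.000183). FGFR2 differed by -0.92 ± 0.229 (SE, adjusted p 0.00214), under the fold threshold, but by -1.45 at its second probe. FGFR2 passed the threshold at -1.18 with the mean of its probes. The stroma markers differed by a mean log2 of -1.40 and the adipocyte markers by -1.96 in the same comparison, and in such bulk samples fewer cells of a type and less RNA per cell cannot be told apart. Relative to the stroma markers the differences were 0.00 for FGF7, -0.22 for FGF10 and 0.49 for FGFR2, none of them called. FGFR1 was called at -1.12 ± 0.257 (SE, adjusted p 0.000389). After this step 10658 of 16446 genes were called, against 6408 before it, so the FGFR1 call says little by itself. The step was chosen after seeing the data, and the SE leaves out how the markers differ from each other.

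**Figure D4:**
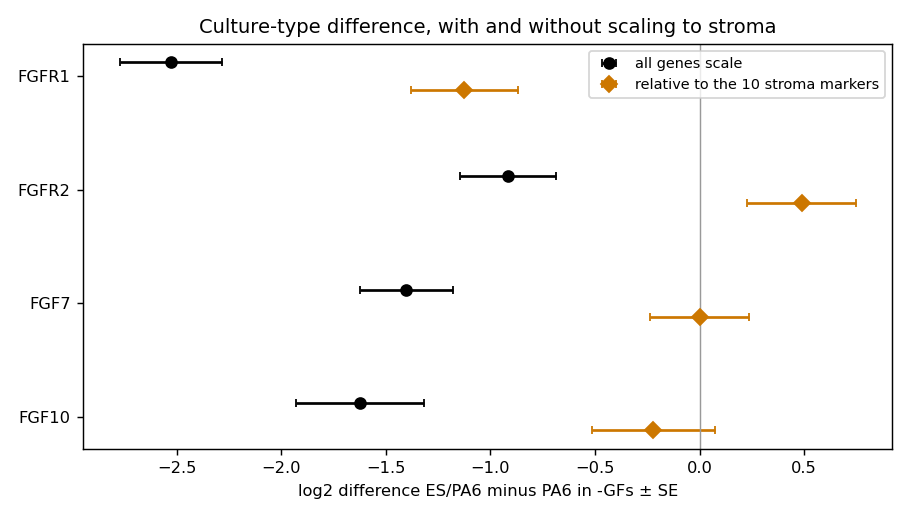
Log2 difference, ES/PA6 co-cultures minus PA6 cultured alone, in -GFs medium (horizontal axis, with standard error), before (circles) and after (diamonds) the mean of 10 stroma markers was subtracted from each array. FGF7 goes from -1.40 to 0.00 and FGFR1 from -2.53 to -1.12. FGFR3 and FGF4, which lack detection in at least 1 of the groups, are not drawn.

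The order of the 6 groups summarises the pattern of each gene. For FGFR2 it ran PA6 BMP4, PA6 -GFs, ES/PA6 BMP4, ES/PA6 -GFs, PA6 FGF2 and ES/PA6 FGF2, and only the first step was free of overlap between neighbouring groups. For FGF10 it ran PA6 BMP4, PA6 FGF2, PA6 -GFs, ES/PA6 BMP4, ES/PA6 FGF2 and ES/PA6 -GFs, with overlap between PA6 -GFs and ES/PA6 BMP4 and between the last pair. All mono-culture groups lay above all co-culture groups for FGFR1 and FGF7. Across the 18 arrays, with the mean of each culture type subtracted, the genes most like FGFR2 were SLC1A3 (Pearson r = 0.975), FHL1 (0.973) and CSRP1 (0.959). Those most like FGFR1 were NFIX (0.932), PIK3R1 (0.929) and 2410026K10RIK (0.926). FGF10 was nearest to EXTL3 (0.844), CDC2L6 (0.84) and NUDT4 (0.839), FGF7 to OSMR (0.852), 2610307O08RIK (0.842) and CHUK (0.84), FGFR3 to 2010003K11RIK (0.94), LOC245892 (0.931) and AQP7 (0.898), and FGF4 to LOC380947 (0.826), RIPK4 (0.824) and 1700063H04RIK (0.797). These values describe likeness over arrays that share treatments.

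The remaining genes with an FGF name, not all of them receptor ligands, gave the context. Of 18, 8 were tested and 10 were detected on at most 1 array. With FGF2 in the co-cultures 2 of 8 were called, both lower, beside the 3.34% of all genes. FGF5, a marker of primed epiblast, stood at 10.48, 10.83 and 10.01 in -GFs and at 6.02, 5.72 and 7.06 with FGF2 (-4.17 ± 0.26 SE, adjusted p 1.88e-07). It was not detected on FGF2 replicate 2 (5.72), so the size of this fall is set against values near the detection limit. FGF15, a ligand that acts in an endocrine way in the gut, stood at 8.68, 8.48 and 7.95 against 6.40, 6.26 and 5.87 (-2.20 ± 0.302 SE, adjusted p 0.000334). Both were undetected in all PA6 mono-cultures.

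FGF18 showed the reverse distribution. It stood at 8.56, 8.23 and 8.75 in PA6 -GFs and at 5.63, 5.45 and 6.46 with FGF2, where it was detected on 1 of 3 arrays (-2.67 ± 0.291 SE, adjusted p 1.14e-05), and at 5.18, 5.93 and 6.09 in ES/PA6 -GFs. With BMP4, 0 of the 8 were called by limma in either culture type. Of all genes 1.41% were called in the mono-cultures and 0.76% in the co-cultures, so these zeros say little about the list. Between the culture types in -GFs medium 6 of the 8 were higher in the co-cultures (FGF5, FGF8, FGF13, FGF15, FGF17 and FGF22, all undetected in PA6 -GFs) and FGF18 was lower, where 39% of all genes were called. The bounds ran from at least 1.11-fold for FGF8 to at least 17.6-fold for FGF5. These 6 passed the detection filter only through co-culture arrays.

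Of 9 co-receptors and binding proteins 6 were tested. In the mono-cultures NCAM1 and FLRT2 were called with each growth factor, 2 of 6 beside 5.27% of all genes for FGF2 and 1.41% for BMP4. In the co-cultures FGFBP3 was called with BMP4, 1 of 6 beside 0.76% of all genes. NCAM1, an adhesion molecule that binds FGF receptors, stood at 5.35, 5.30 and 5.73 in PA6 -GFs, undetected, at 6.85, 7.01 and 6.38 with FGF2 and at 8.61, 7.69 and 8.25 with BMP4. The rise was at least 3.69-fold under BMP4 (adjusted p 8.81e-05) and at least 1.37-fold under FGF2 (adjusted p 0.00496). In the co-cultures its BMP4 change was -0.50 ± 0.282 (SE, adjusted p 0.594). FLRT2, a membrane protein of a family that binds FGF receptors, changed in opposite directions in the mono-cultures, by 1.37 with FGF2 (adjusted p 0.000466) and -1.11 with BMP4 (adjusted p 0.0129). FGFBP3, a carrier that releases FGFs from matrix, fell by 1.88 on the log2 scale with BMP4 in the co-cultures (adjusted p 0.0628). Between the culture types FGFBP1, FLRT3, NCAM1 and FGFBP3 were higher in the co-cultures, where 39% of all genes were called. Of these only FGFBP3 was detected in PA6 -GFs, so the sizes of the others are not measured ones. FGFBP1 and FLRT3 passed the detection filter only through co-culture arrays, so their calls are not free of the filter. FGFRL1, a receptor without a kinase domain, was lower (-1.61 ± 0.167 SE).

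**Figure D5:**
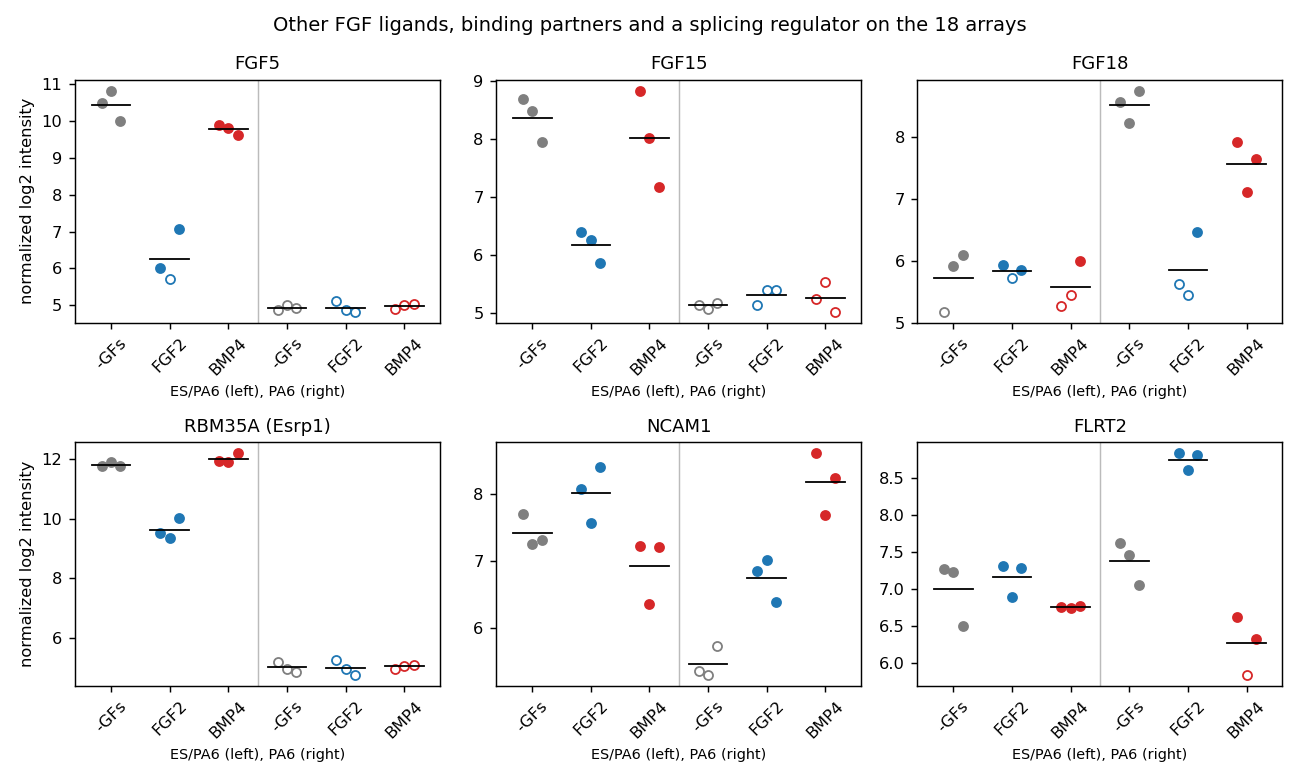
Normalized log2 intensity (vertical axis) of FGF5, FGF15, FGF18, RBM35A, NCAM1 and FLRT2 on each of the 18 arrays, in ES/PA6 co-cultures (left of the grey line) and PA6 mono-cultures (right) in -GFs, FGF2 or BMP4 medium. Points are arrays, open where not detected, and lines are means of 3. FGF5, FGF15 and RBM35A are seen in the co-cultures only and are lowest there with FGF2.

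RBM35A, now named Esrp1, an epithelial splicing factor that selects the epithelial form of FGFR2, was the 1 tested gene of 4 splicing regulators. It stood at 11.76, 11.89 and 11.76 in ES/PA6 -GFs, at 9.50, 9.34 and 10.03 with FGF2 and at 11.95, 11.89 and 12.19 with BMP4. The FGF2 arrays lay below all other co-culture arrays, with a log2 change of -2.18 ± 0.169 (SE, adjusted p 1.08e-06), where 3.34% of all genes were called. It was undetected in the mono-cultures, at least 45.3-fold lower than in the co-cultures in -GFs, where 39% of all genes were called. RBM35A passed the detection filter only through co-culture arrays, so this difference is not free of the filter.

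Downstream, 13 of 17 feedback regulators and targets of FGF signalling were tested. In the mono-cultures with FGF2, 5 were higher and 1 lower, beside 5.27% of all genes called, with a list median of 0.999 against -0.01 over all genes. DUSP6, a phosphatase that acts on ERK, had the largest rise, from 8.61 ± 0.305 to 10.99 ± 0.358 (SD, n = 3, log2 change 2.39 ± 0.193 SE), and EGR1, an immediate early gene, fell by 2.16 ± 0.349 (SE). In the co-cultures 0 of the 13 were called with FGF2 in limma, beside 3.34% of all genes, a share at which so short a list may hold no call. DUSP6 was at 12.36 ± 0.071 in -GFs and 12.36 ± 0.074 with FGF2 there (SD, n = 3), and its interaction was -2.38 ± 0.273 (SE, adjusted p 4.90e-05). Of the 13, 6 were higher in the co-cultures than in the mono-cultures in -GFs, as were 19.4% of all genes. With BMP4, 0 of 13 were called in limma in either culture type. Of all genes 1.41% were called in the mono-cultures and 0.76% in the co-cultures, so these zeros say little about the list.

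Among 11 tested proteoglycan cores, which carry the heparan sulfate chains, SDC4 rose by 1.27 ± 0.116 (SE) with FGF2 in the mono-cultures, and no other core was called against -GFs. Of 17 heparan sulfate enzymes, SULF1, which removes sulfate from the chains, rose by 1.36 and HS3ST3A1 fell by 1.31 with FGF2 in the mono-cultures. HS3ST3A1 also fell by 1.21 with BMP4 in the co-cultures, and EXTL1 was at least 2.27-fold higher with FGF2 there. Of 16 ERK cascade genes, GAB1, a docking protein below receptor kinases, fell by 1.06 ± 0.138 (SE) with FGF2 in the mono-cultures. No other was called against -GFs. With FGF2 in the mono-cultures 9.09% of the cores, 11.8% of the enzymes and 6.25% of the ERK genes were called, against 5.27% of all genes. In the co-cultures 5.88% of the enzymes were called with each factor, against 3.34% (FGF2) and 0.76% (BMP4) of all genes. Each share rests on 1 or 2 genes and is not read as a result about its list.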

How the data were processed

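Total RNA of 18 cultures was measured on Illumina MouseWG-6 v2.0 bead arrays. The authors prepared biotin-labelled cRNA, and GenomeStudio 2011.01 is named in the submitters' processing notes. The deposited intensity values are non-normalized and linear, 1 per probe and array (55.5 to 72879), each with a detection p; 5 stray lines with shifted cells were left out. Background was corrected and arrays were normalized by neqc (limma 3.58.1, R 4.3.3; offset 16), which understates fold changes of dim probes. The kept probe of largest mean stood for its gene. A single limma fit of 6 group means gave all 9 comparisons, with calls at a p adjusted by Benjamini-Hochberg over all 16446 genes below 0.1 and a log2 change over 1, the study's thresholds. With 3 arrays a group an exact permutation test cannot go below 0.1, and precision is limited by the number of arrays. A group without detection has only a bound ("at least"), set from each array's lowest detected value or the probe's own. The scripts were tested on simulated data. Genes and lists were chosen with earlier results of these data known. All members were named, with called genes of the other FGF, co-receptor and splicing lists and the largest changes against -GFs of the remaining lists. Likeness took the 3 highest r. Replicate numbers, which the labels tie to biological replicates, correlated at 0.325 to 0.521 in all 9 co-culture pairs and at 0.0628 to 0.164 in the mono-cultures, so a replicate block was tried.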

Additional observations from a re-analysis of the deposited data

Results flagged for a closer look

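The BMP4 change of FGFR3 differed between the culture types, by the interaction contrast in limma: -1.60 ± 0.344 (SE, adjusted p 0.0682), from a log2 change of -0.35 in the ES/PA6 co-cultures and 1.24 in the PA6 mono-cultures. FGFR3 was detected on 0 of the 6 co-culture arrays behind it, so the co-culture change is one between background values and the size of the contrast is not a measured one. The adjusted p ranged from 0.0281 to 0.258 over the alternatives, and 7 of the 12 fits that left out 1 array lost the call. FGFR3 passed the detection filter only through the PA6 BMP4 arrays.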

How the results depend on the processing

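Over the alternatives, 378 of 402 member comparisons kept their direction and side of the threshold, 10 lost a call, 6 gained one and 8 changed sign. With 1 array left out, it was 328 of 360, with 14, 4 and 14. The replicate block changed no call, and the blocked value of FGFR2 for FGF2 in the mono-cultures was -1.26. Slide as a block was not run, since no slide is named. Subtracting the stroma markers was chosen after seeing the data. The cause of the changes below was not tested, apart from the filter that left FGFR3 out.

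Without background correction the numbers of called members were 1 for FGF2 vs BMP4 in PA6 and 0 for the BMP4 interaction, with a cubic spline 0 for the interaction, and with detection on all 18 arrays 1 and 0, as FGFR3 was then not tested. BMP4 vs -GFs in PA6 had 2 called members in place of 3 under each of these settings, FGFR3 being lost. The other member probes had 7 calls, and 2 with either normalization that kept the background. With the mean of all probes FGF2 vs -GFs in PA6 had 2 (FGFR1 at -1.19). The fit on the 9 arrays of a culture type gave 0 for BMP4 and 1 for FGF2 vs BMP4 in the co-cultures. Relative to the stroma markers there were 2 for FGF2 in PA6, 2 between the culture types and 0 for the BMP4 interaction. Of all 16446 genes 1369, 10658 and 41 were called there.

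Sign changes relative to the stroma markers were FGFR1 (0.17) and FGF4 (0.29) for FGF2 in the co-cultures, FGFR1 (0.31) for BMP4 in PA6, and FGFR2 (0.49), FGFR3 (0.98) and FGF7 (0.00093) between the culture types. The BMP4 interaction of FGF7 turned to 0.015 there and to 0.022 with median scaling.

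With 1 array left out, members called ranged from 0 to 1 for FGF2 in the co-cultures, 1 to 2 for FGF2 in PA6, 1 to 3 for BMP4 in PA6, 1 to 2 for FGF2 vs BMP4 in the co-cultures and 0 to 1 for the BMP4 interaction. Changes that crossed 0 were FGF4 (-0.43 to 0.011) and FGF10 (-0.056 to 0.61) for FGF2 in the co-cultures, FGF7 for FGF2 vs BMP4 there (-0.15 to 0.14), FGF4 in the FGF2 interaction (-0.31 to 0.13), and FGF7 (-0.33 to 0.18) and FGF10 (-0.15 to 0.60) in the BMP4 interaction. FGFR3 is near the detection limit, where signal over background limits its values.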
